A study of Mus musculus with 14 samples.

Results

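Integrins are cell surface receptors made of 1 alpha and 1 beta subunit, and the 10 genes described here encode such subunits: Itga8, Itga5, Itgav, Itga4, Itga6 and Itga7 for alpha chains, and Itgb1, Itgb3, Itgb5 and Itgb6 for beta chains. They were chosen by gene symbol among the 20193 genes of the table, each of which has 1 row, and the choice was made with earlier results of these data known. All 10 were found, and no filter on low values was applied, so all 10 were tested. RNA levels were measured with Affymetrix arrays in cells of HL-1, an immortalised line derived from a mouse atrial tumour that keeps many features of heart muscle cells. The cells were grown in Claycomb medium with serum, L-glutamine, norepinephrine and antibiotics, and all groups were transfected with siRNA at 10 nM through the lipid reagent RNAiMax. The groups were siScramble, the control (6 arrays), siAirn-001.1 (4 arrays) and siAirn-001.2 (4 arrays), both reagents being directed at the long non-coding RNA Airn. How those 2 reagents differ, how long the cells were exposed and whether each array came from its own culture is not stated in the labels. The labels name the arrays of a group biological replicates. The p-values below set each difference against the spread between arrays of a group, which may in part be technical. All cells are of 1 line, and the 6 siScramble arrays serve as control for both reagents, so the 2 comparisons share them.

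The alpha chain of an integrin sets most of what the receptor binds, and the beta chain carries the tail that talin and kindlin attach to. Itga8, Itga5 and Itgav encode alpha chains that recognise the RGD tripeptide of fibronectin, vitronectin, nephronectin and related matrix proteins. Itga4 encodes a receptor chain for VCAM1 and fibronectin, and Itga6 and Itga7 encode laminin receptor chains, of which Itga7 is typical of muscle. Itgb1 encodes the common partner of all these alpha chains, whereas the products of Itgb3, Itgb5 and Itgb6 pair with that of Itgav. In heart muscle, integrins tie the contractile apparatus to the surrounding matrix at costameres and pass on mechanical load.

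The promoters of Itga8 and Itgav, whose transcripts were lower, of Itga4, which differed between the reagents, and of the common partner Itgb1 are shown as the sequence just before the start of each gene. RefSeq promoters (build GRCm38.p6) were matched for 7 of the 10 genes: Itga8, Itga5, Itgav, Itga4, Itgb1, Itgb5 and Itgb6. Each sequence below is the 250 bases before the start, 5′ to 3′ on the gene's strand, and capitals mark a match, on either strand, to 1 of 6 motifs. The motifs were the GC box (GGGCGG), the CCAAT box (CCAAT), the TATA box (TATAAA), the AP-1 site (TGANTCA), the TEAD site (GGAATG) and the CArG box bound by serum response factor.
Itga8: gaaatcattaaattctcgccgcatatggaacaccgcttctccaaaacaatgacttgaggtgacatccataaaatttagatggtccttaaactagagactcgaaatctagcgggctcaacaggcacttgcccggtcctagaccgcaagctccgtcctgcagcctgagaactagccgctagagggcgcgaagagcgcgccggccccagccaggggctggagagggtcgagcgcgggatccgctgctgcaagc
Itgav: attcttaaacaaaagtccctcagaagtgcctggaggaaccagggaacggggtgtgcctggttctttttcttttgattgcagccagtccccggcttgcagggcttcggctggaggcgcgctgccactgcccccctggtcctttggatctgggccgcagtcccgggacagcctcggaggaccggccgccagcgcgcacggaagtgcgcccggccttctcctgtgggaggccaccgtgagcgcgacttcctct
Itga4: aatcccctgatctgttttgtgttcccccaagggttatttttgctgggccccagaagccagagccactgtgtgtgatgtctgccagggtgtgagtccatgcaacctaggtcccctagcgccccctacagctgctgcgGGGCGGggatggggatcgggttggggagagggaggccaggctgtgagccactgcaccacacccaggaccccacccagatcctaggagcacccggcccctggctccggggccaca
Itgb1: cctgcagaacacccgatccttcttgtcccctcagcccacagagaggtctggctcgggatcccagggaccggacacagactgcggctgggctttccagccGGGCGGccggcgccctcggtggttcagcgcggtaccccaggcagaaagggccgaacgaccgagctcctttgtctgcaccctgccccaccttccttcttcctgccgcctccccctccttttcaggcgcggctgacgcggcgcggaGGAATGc

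The Itga8 sequence (chr2:12301945-12302194, minus strand) has a GC content of 56.4% and 18 CpG dinucleotides, and holds none of the 6 motifs. The Itgav sequence (chr2:83724147-83724396, plus strand) has a GC content of 64.4% and 18 CpG dinucleotides, and also holds none of them. The Itga4 sequence (chr2:79255176-79255425, plus strand), with a GC content of 64.0% and 6 CpG dinucleotides, holds 1 GC box at 114 to 109 bases before the start. The Itgb1 sequence (chr8:128685404-128685653, plus strand), with a GC content of 68.0% and 21 CpG dinucleotides, holds 1 GC box at 151 to 146 bases and 1 TEAD match at 7 to 2 bases before the start. Among the other matched members, Itga5 has 2 GC boxes, Itgb5 has 3, and the second of the Itgb6 promoters has 1 CArG box. Over all 32817 promoters of this length the GC content had a median of 52.4% with quartiles of 45.2% and 61.2%. A GC box was found in 32.7% of them, a CCAAT box in 33.8%, a TATA box in 12.4%, an AP-1 site in 6.75%, a TEAD site in 12.6% and a CArG box in 1.47%. A match is a run of letters, and its absence says only that these letters are not in the window.

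Across the series the arrays were alike, with medians of 7.45 to 7.55 on the log2 scale, SDs of 2.09 to 2.19 and correlations of 0.988 to 0.998 across genes. Airn held 93.5%, 89.2%, 48.4% and 48.3% of its siScramble mean in siAirn-001.1 arrays 1 to 4, and 96.2%, 80.5%, 41.4% and 45.5% in siAirn-001.2 arrays 1 to 4. With siScramble it was 86.8% to 112.7%, and 3 arrays labelled siAirn lay inside that range, and groups are named by their labels throughout. Averaged over both reagents Airn changed by -0.64 on the log2 scale (adjusted p = 0.0754). Of 12 cardiomyocyte markers, 11 were measured, and all but Sln (6.24) lay above the median of all genes with siScramble (7.49). Their mean level was 11.47 to 11.70 over the siScramble arrays, 11.51 to 11.67 over the siAirn-001.2 arrays and 11.72 to 11.93 over the siAirn-001.1 arrays, where Tnni3, Des and Nkx2-5 were called higher and all 11 had changes above 0 (Des and Nkx2-5 lost the call in 7 and 11 of the 14 fits that left out 1 array). The 8 fibroblast markers had mean levels of 6.57 to 7.38, the 7 endothelial markers 6.55 to 6.76 and the 7 leukocyte markers 6.12 to 6.33 over all arrays, and the 5 smooth muscle markers, several of which cultured heart cells also make, 10.55 to 10.75. The fibroblast markers Col1a1 (8.65), Postn (8.08), Col1a2 (7.76) and Col3a1 (7.69) lay above the siScramble median of all genes. So did the endothelial marker Kdr (7.70) and the leukocyte marker Cd68 (7.50). The other fibroblast, endothelial and leukocyte markers lay below it, as did the smooth muscle marker Myh11 (7.10). Among these lists 1 gene was called, the endothelial marker Kdr, a VEGF receptor gene, which rose by 0.71 with siAirn-001.1 (adjusted p = 0.00205) and by 0.39 for the mean (adjusted p = 0.0336, lost in 8 of the 14 fits that left out 1 array). The changes of the other endothelial markers with siAirn-001.1 were on both sides of 0, none of them called. Of the 8 fibroblast markers 7 had changes below 0 against siScramble with each reagent and for the mean, the lowest being Postn, named after its values were seen (-0.86 for the mean, adjusted p = 0.22). Whether the shifts of these markers have a part in the integrin values was not tested.

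Of the 10 integrin subunit genes, Itga8, Itgb3 and Itgav fell on average over both reagents, and none rose. A gene was called when its adjusted p in limma, with Benjamini-Hochberg adjustment over all 20193 genes, was under 0.05. In that comparison 4.13% of all genes were called in either direction and 1.97% were called lower, against 3 of the 10 members, which were not chosen blind to these data. With siAirn-001.1, Itga8 and Itgav fell, 2 of 10 members, where 5.96% of all genes were called in either direction and 2.53% lower. With siAirn-001.2, Itga8 and Itgb3 fell, 2 of 10 members, where 0.951% were called in either direction and 0.47% lower. Between the reagents Itga4 was called, higher with siAirn-001.2, where 1.01% of all genes were called in either direction and 0.332% higher. For Itga8 and Itgb3, all 8 siAirn arrays lay below every siScramble array, which held for 149 genes or 0.738% of the table. The median log2 change of the 10 members was -0.19 for the mean of both reagents, -0.24 for siAirn-001.1 and -0.15 for the other reagent, where the medians over all genes were -0.0042, -0.0094 and -0.0022. RNA came from whole cultures, so fewer cells carrying a transcript and less transcript per cell cannot be told apart.

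**Figure D1:**
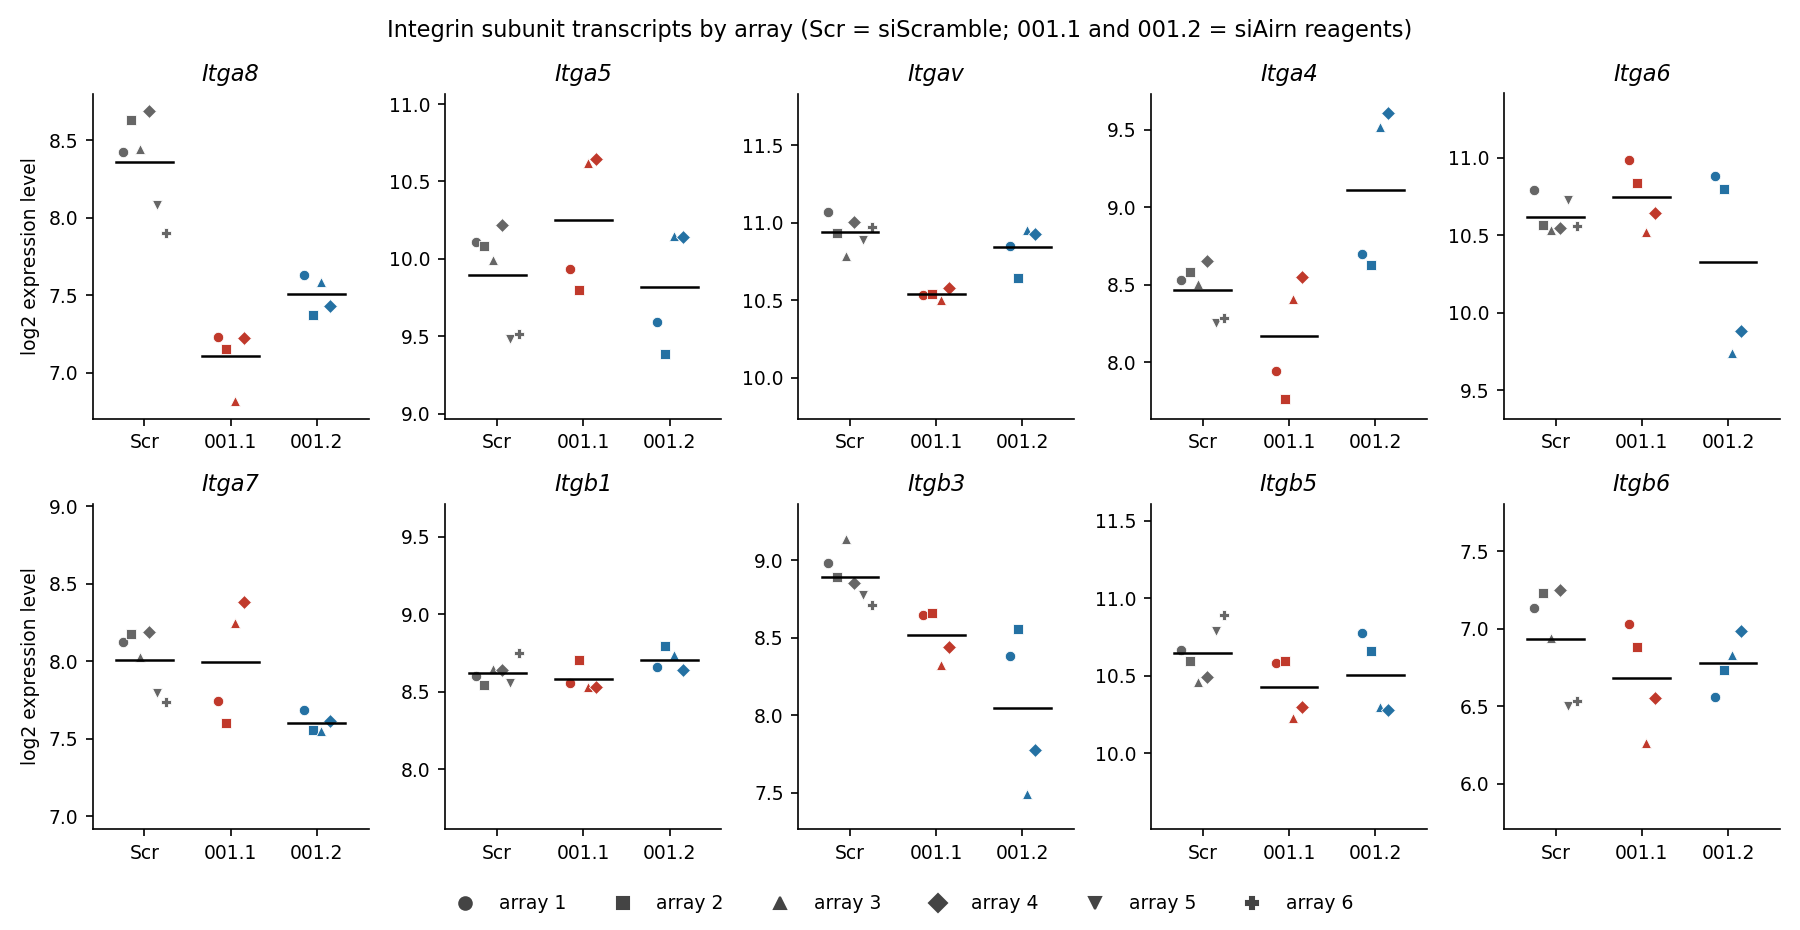
Log2 expression level of each integrin subunit gene (vertical axis, the same span in every panel) in each array, by group, with symbols for the array number and a line at the group mean. The 8 siAirn arrays of Itga8 and of Itgb3 sit below all 6 siScramble arrays, and siScramble arrays 5 and 6 sit apart from the other siScramble arrays in several panels.

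Itga8, whose product pairs with that of Itgb1 and binds nephronectin, had the largest change of the 10 in both single-reagent comparisons and in their mean. Its log2 level (transcript cluster 10480090) was 7.90 to 8.69 with siScramble, with a median of 8.43. It was 7.23, 7.15, 6.81 and 7.22 in siAirn-001.1 arrays 1 to 4, and 7.63, 7.37, 7.58 and 7.43 in siAirn-001.2 arrays 1 to 4. The siAirn-001.1 values and those of siAirn-001.2 arrays 2 and 4 lay below the median of all genes (7.49), where RMA damps differences. No siAirn array reached the lowest siScramble array, and the arrays of the 2 reagents did not overlap each other either, those of siAirn-001.1 being lower. The group means were 8.36 ± 0.31 (SD, n = 6), 7.10 ± 0.20 (SD, n = 4) and 7.50 ± 0.12 (SD, n = 4). The mean over both reagents fell by 1.06 ± 0.11 (SE, adjusted p = 0.000122), to 48.1% of the siScramble level. It fell by 1.25 ± 0.14 with siAirn-001.1 (adjusted p = 7.45e-05) and by 0.86 ± 0.14 with siAirn-001.2 (adjusted p = 0.00892). Exact two-sided permutation of array values gave p = 0.000333 for the mean, 0.00476 for siAirn-001.1 and 0.00952 for siAirn-001.2, where the smallest that the design allows is 0.000333 for the mean and 0.00476 for a single reagent. The reagents differed by 0.40 ± 0.15, which did not pass (adjusted p = 0.235). The unadjusted exact permutation p was 0.0286, the smallest that 4 arrays against 4 allow.

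The fall of Itga8 passed in limma whichever of the 14 arrays was left out, with an adjusted p of at most 0.00064 for the mean, 0.000457 for siAirn-001.1 and 0.0347 for siAirn-001.2. The 2 lowest siScramble values, 8.08 and 7.90, were those of arrays 5 and 6. Without them the mean change was -1.24 (adjusted p = 1.37e-05). Without the 3 siAirn arrays whose Airn lay inside the siScramble range, it was -1.12 (adjusted p = 0.00114). The authors' deposited table gives Itga8 a log2 difference of -1.055 with an adjusted p of 0.003362, and in that table no other member has an adjusted p under 0.05.

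Itgav, the RGD-binding alpha chain that the products of Itgb3, Itgb5 and Itgb6 share, fell with siAirn-001.1. Its log2 level (transcript cluster 10473281) was 10.79 to 11.07 with siScramble, with a median of 10.95. It was 10.54, 10.54, 10.50 and 10.58 with siAirn-001.1, all below the siScramble range, and 10.85, 10.64, 10.95 and 10.93 with siAirn-001.2, where 3 of 4 arrays lay inside it. It fell by 0.40 ± 0.072 with siAirn-001.1 (adjusted p = 0.00345), and the change with siAirn-001.2 was -0.10 ± 0.072 (adjusted p = 0.747). The mean over both reagents fell by 0.25 ± 0.060 (adjusted p = 0.0262). The difference between the reagents, 0.30 ± 0.079, did not pass (adjusted p = 0.0766). The siAirn-001.1 call passed whichever array was left out (adjusted p up to 0.0118). For the mean it did not pass when siScramble array 1, 2 or 4 was left out (adjusted p up to 0.0766), without the 3 siAirn arrays with Airn inside the siScramble range (0.0798), with arrays centred on their median (0.0546) or if both reagents were fitted as 1 group (0.114).

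Itga5, the alpha chain of the main fibronectin receptor, showed no called change against siScramble, and its siScramble arrays were widely spread. Its level (transcript cluster 10433114) was 9.49 to 10.22 with siScramble, with a median of 10.04, and arrays 5 and 6 held the lowest values, 9.49 and 9.51. It was 9.94, 9.80, 10.62 and 10.65 with siAirn-001.1, and the 4 siAirn-001.2 values were 9.60, 9.39, 10.15 and 10.14. Arrays 3 and 4 were higher than arrays 1 and 2 with both reagents, and the 3 groups overlapped. The change was 0.35 ± 0.20 with siAirn-001.1 (adjusted p = 0.42) and -0.08 ± 0.20 with siAirn-001.2 (adjusted p = 0.981). The mean change of 0.13, with a 95% interval of -0.23 to 0.50, turned to -0.06 without siScramble arrays 5 and 6. The reagents differed by -0.43 (adjusted p = 0.439). In a fit added after the data were seen, where the numbers paired the 8 siAirn arrays, this difference passed (adjusted p = 0.038).

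Itga4, which binds VCAM1 and fibronectin, was the member called between the reagents. Its level (transcript cluster 10473125) was 8.25 to 8.65 with siScramble, with a median of 8.52. It was 7.94, 7.76, 8.41 and 8.55 with siAirn-001.1, whereas the siAirn-001.2 arrays held 8.70, 8.63, 9.52 and 9.61. Every siAirn-001.2 array lay above every siAirn-001.1 array. Against siScramble, siAirn-001.1 arrays 1 and 2 lay below the range and siAirn-001.2 arrays 3 and 4 lay far above it, while siAirn-001.1 arrays 3 and 4 and siAirn-001.2 array 2 lay inside it and siAirn-001.2 array 1 just above. The reagents differed by 0.95 ± 0.21 (adjusted p = 0.0412, unadjusted exact permutation p = 0.0286). Against siScramble neither change passed, at -0.30 ± 0.19 with siAirn-001.1 (adjusted p = 0.479) and 0.64 ± 0.19 with siAirn-001.2 (adjusted p = 0.137), and their mean was 0.17 ± 0.16 (adjusted p = 0.772). The call between the reagents was lost in 10 of the 14 fits that left out 1 array (adjusted p up to 0.182): without any 1 of the 4 siAirn-001.1 arrays, of siScramble arrays 1 to 4 or of siAirn-001.2 arrays 3 and 4. It was also lost with arrays centred on their median (0.0604), with the 8 siAirn arrays fitted alone and unpaired (0.215), without siScramble arrays 5 and 6 (0.0511) and without the 3 siAirn arrays with Airn inside the siScramble range (0.0689), and kept when the numbers paired the 8 siAirn arrays (0.00744).

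The laminin receptor chains Itga6 and Itga7 had no called change, and each had a pair of arrays that stood apart. Itga6 (transcript cluster 10472820), which marks receptors for laminin in many cell types, was at 10.54 to 10.79 with siScramble, with a median of 10.56. It was 10.99, 10.84, 10.52 and 10.64 with siAirn-001.1, and the 4 siAirn-001.2 values were 10.88, 10.80, 9.74 and 9.88. The 2 low values, in siAirn-001.2 arrays 3 and 4, were 54.4% and 60.0% of the siScramble mean, while arrays 1 and 2 of that reagent lay above the siScramble range. The Itga6 change was 0.13 ± 0.19 with siAirn-001.1 (adjusted p = 0.834) and -0.29 ± 0.19 with siAirn-001.2 (adjusted p = 0.662).

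Itga7, the laminin receptor chain of striated muscle (transcript cluster 10367440), was at 7.74 to 8.19 with siScramble, with a median of 8.08. It was 7.75, 7.60, 8.25 and 8.38 with siAirn-001.1, whereas the siAirn-001.2 arrays held 7.69, 7.55, 7.55 and 7.61. All 4 siAirn-001.2 arrays lay below the siScramble range, array 1 narrowly. With siAirn-001.1, array 1 lay just inside it, array 2 below and arrays 3 and 4 above. The change with siAirn-001.2 was -0.41 ± 0.14 (adjusted p = 0.193, unadjusted limma p = 0.00854, unadjusted exact permutation p = 0.00952). It was -0.01 ± 0.14 with siAirn-001.1 (adjusted p = 0.982), a value that turned to 0.007 with arrays centred on their median. With arrays weighted by their quality, Itga7 passed for siAirn-001.2 (-0.49, adjusted p = 0.0284) and for the mean of both reagents (-0.32, adjusted p = 0.0493).

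**Figure D2:**
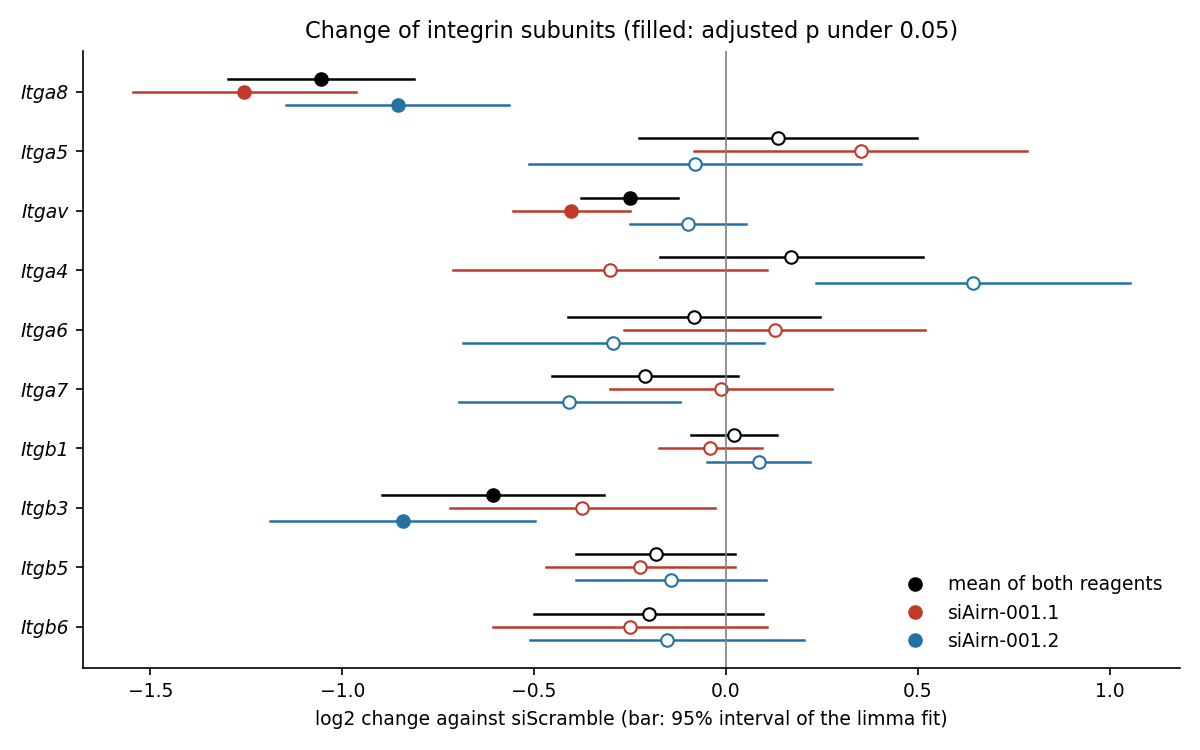
Log2 change against siScramble (horizontal axis) of each integrin subunit gene, for siAirn-001.1, siAirn-001.2 and the mean of both, with 95% intervals of the limma fit. Filled points have an adjusted p under 0.05, which for the mean are Itga8 (-1.06), Itgav (-0.25) and Itgb3 (-0.61).

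Among the beta chains, Itgb3 fell, and Itgb1, Itgb5 and Itgb6 had no called change in any comparison. Itgb3, whose product forms the vitronectin receptor with that of Itgav, was at 8.72 to 9.14 with siScramble (transcript cluster 10381809), with a median of 8.87. It was 8.65, 8.66, 8.32 and 8.44 with siAirn-001.1, and the 4 siAirn-001.2 values were 8.38, 8.56, 7.49 and 7.77. The siAirn arrays all lay below the siScramble range, siAirn-001.1 arrays 1 and 2 narrowly and siAirn-001.2 arrays 3 and 4 by far, at 37.9% and 46.0% of the siScramble mean. The group means were 8.89 ± 0.15 (SD, n = 6), 8.52 ± 0.16 (SD, n = 4) and 8.05 ± 0.50 (SD, n = 4). Itgb3 fell by 0.84 ± 0.16 with siAirn-001.2 (adjusted p = 0.0217) and by 0.61 ± 0.14 for the mean of both reagents (adjusted p = 0.0193). With siAirn-001.1 the change of -0.37 ± 0.16 did not pass (adjusted p = 0.228), while the exact permutation p was 0.00476, the smallest possible. The reagents differed by -0.47 ± 0.18 (adjusted p = 0.246), which did not pass. For the mean it did not pass when siScramble array 1 or 3 was left out (adjusted p up to 0.0506) and with both reagents fitted as 1 group (0.0505). The siAirn-001.2 call was lost without any 1 of siScramble arrays 1 to 4 or siAirn-001.2 arrays 3 and 4 (adjusted p up to 0.0899). The authors' deposited table gives Itgb3 a log2 difference of -0.608 with an adjusted p of 0.111399, and Itgav one of -0.251 with an adjusted p of 0.196418.

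Itgb1, the partner of most alpha chains described here, varied least (transcript cluster 10582843). It was at 8.54 to 8.75 with siScramble, with a median of 8.62, at 8.56, 8.71, 8.53 and 8.53 with siAirn-001.1, whereas the siAirn-001.2 arrays held 8.66, 8.79, 8.74 and 8.64, and the groups overlapped. The mean change was 0.02 (adjusted p = 0.944), with a 95% interval of -0.09 to 0.13, a range that leaves out a change of the size seen for Itgav. Itgb5, a further partner of Itgav (transcript cluster 10435305), was at 10.46 to 10.89 with siScramble, with a median of 10.63. It was 10.58, 10.60, 10.23 and 10.30 with siAirn-001.1, and the 4 siAirn-001.2 values were 10.78, 10.66, 10.30 and 10.28, so arrays 3 and 4 of both reagents lay below the siScramble range and arrays 1 and 2 inside it. Its mean change was -0.18 ± 0.098 (adjusted p = 0.408). Itgb6, best known from epithelia (transcript cluster 10483000), was at 6.50 to 7.25 with siScramble, below the median of all genes in every array, where RMA damps differences. It was 7.03, 6.88, 6.26 and 6.55 with siAirn-001.1, whereas the siAirn-001.2 arrays held 6.56, 6.73, 6.83 and 6.99, and the groups overlapped. Its mean change was -0.20 ± 0.14 (adjusted p = 0.607).

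In several members arrays 3 and 4 of a reagent stood apart from arrays 1 and 2. Same-numbered arrays of both siAirn reagents deviated together across all genes, with correlations of 0.32, 0.53, 0.36 and 0.43 for numbers 1 to 4, so the numbers were taken to pair the 2 reagents. The siScramble arrays showed no such pairing by number, though some correlated at up to 0.46 with a siAirn array of another number. The labels do not state what a shared number means. In arrays 3 and 4 of siAirn-001.2, which also held the least Airn of that group, Itga4 was high and Itga6 and Itgb3 were low, all outside the siScramble range. In arrays 3 and 4 of siAirn-001.1, which likewise held the least Airn of that group, Itga5 and Itga7 were high, both above the siScramble range. Itgb5 lay below the siScramble range in arrays 3 and 4 of both reagents. In siAirn-001.1 arrays 1 to 4 Itga8 held 45.8%, 43.3%, 34.3% and 45.4% of its siScramble mean. Airn held 93.5%, 89.2%, 48.4% and 48.3% there. Whether the Airn level of an array has a part in these values was not tested.

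**Figure D3:**
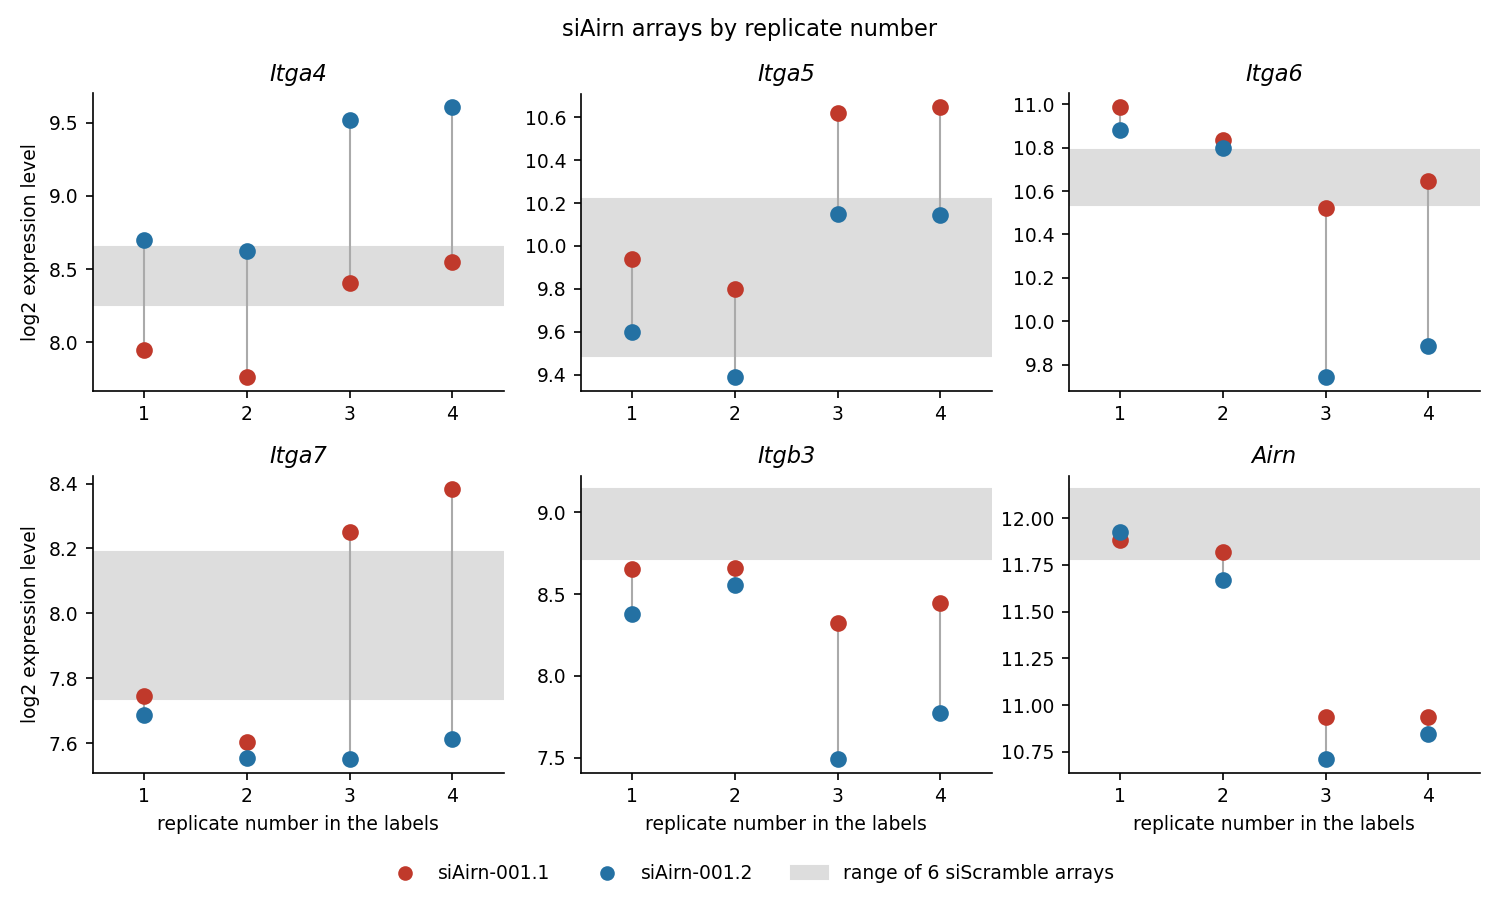
Log2 expression level (vertical axis) of 5 integrin subunit genes and of Airn in the siAirn arrays by replicate number, with the range of the 6 siScramble arrays as a grey band and a line joining same-numbered arrays. For Itga6, Itga7 and Itgb3 the reagents lie close together in numbers 1 and 2 and apart in numbers 3 and 4, and for Itga4 they lie apart in all 4.

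Taken pair by pair, siAirn-001.2 minus siAirn-001.1 was 0.76, 0.87, 1.11 and 1.06 for Itga4 in numbers 1 to 4. For Itga5 it was -0.34, -0.41, -0.47 and -0.51, a difference of 1 direction and much the same size in each pair. Itgav was higher with siAirn-001.2 in all 4 pairs, by 0.31, 0.10, 0.45 and 0.35. Itga8 was too, by 0.40, 0.22, 0.77 and 0.21. A limma fit of the 8 siAirn arrays blocked by replicate number, added after the data were seen, called 0.891% of all genes between the reagents. It called 2 members: Itga4 (0.95, adjusted p = 0.00744) and Itga5 (-0.43, adjusted p = 0.038). Itga5 had not passed without the block (adjusted p = 0.439). For Itga6 and Itga7 the pairs did not agree in size, at -0.11, -0.04, -0.78 and -0.76 and at -0.06, -0.05, -0.70 and -0.77. Itgb3 followed the same order, at -0.27, -0.10, -0.83 and -0.67. For Itgb6 the pairs had opposite directions, at -0.47, -0.15, 0.57 and 0.43.

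Of 17 further integrin subunits in the table, among them the leukocyte chains Itgal, Itgam and Itgb2, none was called in any of the 4 comparisons in limma. At an unadjusted p under 0.05 there were 2 for the mean of both reagents, 1 with siAirn-001.1, 2 with siAirn-001.2 and 1 between the reagents, where 15.8%, 17.9%, 11.3% and 13.4% of all genes had such a p. Nearest to the threshold was Itga1, a collagen receptor chain, with a mean change of -0.34 (adjusted p = 0.0505), which was singled out after its values were seen. The medians of these 17 genes were -0.01 for the mean, -0.04 for siAirn-001.1 and 0.02 for the other reagent.

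Among ligands of the integrins, 29 of 30 listed genes were measured, and the called ones fell into both directions. For the mean of both reagents 1 rose, Tgfb1, whose latent form is activated by receptors of the Itgav chain (0.53, adjusted p = 0.0438). That is 1 of 29, beside 4.13% of all genes called. With siAirn-001.1, 3 rose and 2 fell, 5 of 29 beside 5.96% of all genes. The rises were Tgfb1 (0.67, adjusted p = 0.0273), Vcam1, the counter-receptor of Itga4 (0.57, adjusted p = 0.0236), and the laminin chain gene Lama4 (0.52, adjusted p = 0.00732). The falls were the thrombospondin gene Thbs1 (-0.96, adjusted p = 0.0375) and Cyr61, a matricellular protein gene now named Ccn1 (-0.58, adjusted p = 0.0295). With siAirn-001.2 none was called in limma, and 3 of 29 had an unadjusted p under 0.05, beside 11.3% of all genes. For the mean it was 10 of 29 and with siAirn-001.1 11 of 29, larger shares than the 15.8% and 17.9% of all genes. The list was not chosen blind to these data. Between the reagents Lama4 was lower with siAirn-001.2 (-0.56, adjusted p = 0.0311), 1 of 29 beside 1.01% of all genes. The median of the 29 was -0.06, -0.05 and -0.04 for the mean, siAirn-001.1 and siAirn-001.2.

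The array values of these ligands set limits on the calls. Tgfb1 was at 8.01 to 8.59 with siScramble, with a median of 8.18, and at 9.47, 9.13, 8.58 and 8.61 with siAirn-001.1, so arrays 3 and 4 lay at the upper edge of the siScramble range. It was 8.90, 8.87, 8.52 and 8.40 with siAirn-001.2. Thbs1 was at 8.33 to 9.23 with siScramble, where arrays 5 and 6 held 8.38 and 8.33 and the others at least 9.09, and at 7.82, 7.52, 8.12 and 8.31 with siAirn-001.1, all below the lowest siScramble array. Lama4 was at 6.22 to 6.57 with siScramble and at 7.29, 7.09, 6.69 and 6.84 with siAirn-001.1, again without overlap. Its values lay below the median of all genes in every array, where RMA damps differences. With 1 array left out, the Lama4 rise passed in all 14 fits, its call between the reagents was lost in 5 (adjusted p up to 0.124), the siAirn-001.1 calls of Tgfb1, Cyr61 and Thbs1 were lost in 6, 6 and 7 of them and that of Vcam1 in 2, and the Tgfb1 call for the mean in 8. Of the listed ligands, fibronectin, vitronectin and nephronectin, which RGD-binding chains recognise, had no called change. For the mean of both reagents Fn1 was at -0.21 (adjusted p = 0.35), Vtn at -0.01 (adjusted p = 0.983) and Npnt at -0.10 (adjusted p = 0.597). They do not stand for all listed ligands, since Tgfb1, Thbs1 and Cyr61, among others, were called with siAirn-001.1.

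**Figure D4:**
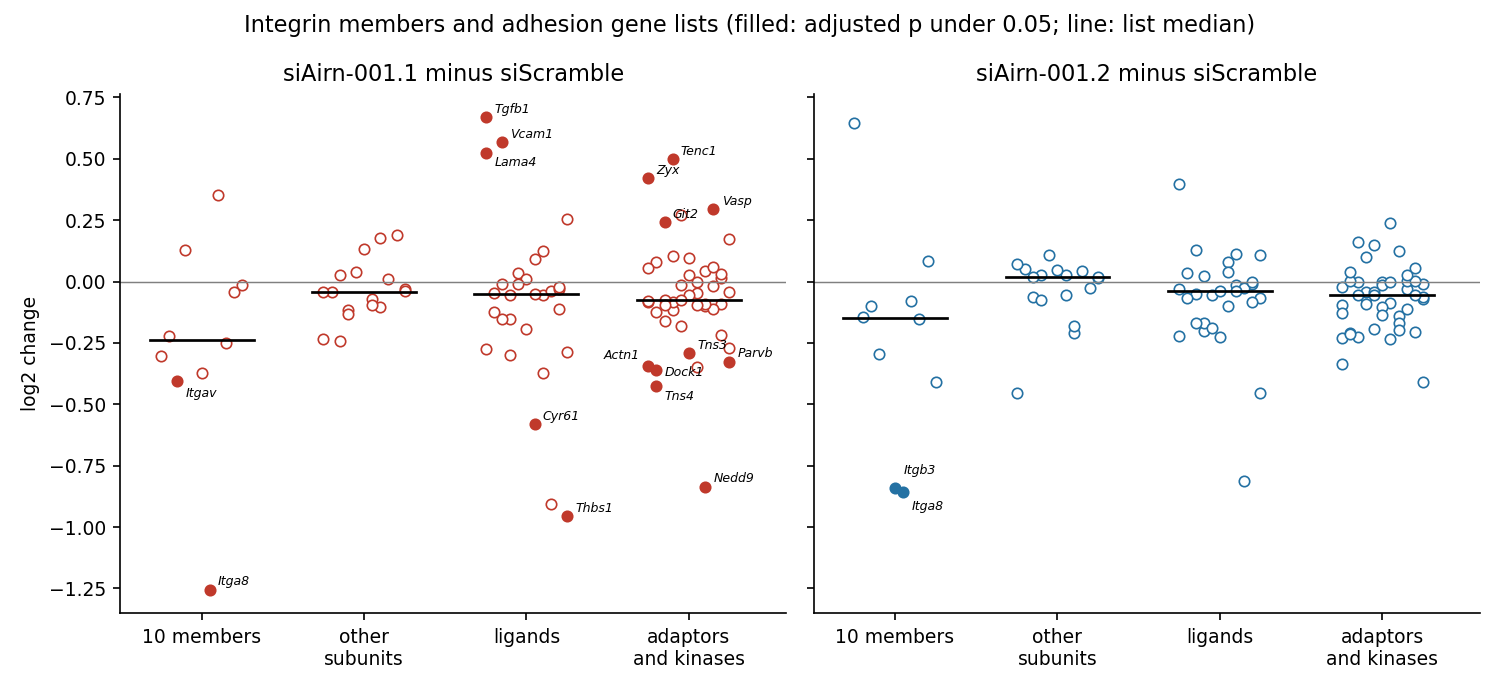
Log2 change against siScramble (vertical axis) with siAirn-001.1 and siAirn-001.2 for the 10 integrin members, 17 other subunits, 29 ligands and 45 adaptors and kinases, with 1 point a gene and a line at each list's median. Filled, named points have an adjusted p under 0.05: 2 members with each reagent, and 5 ligands and 10 adaptors or kinases with siAirn-001.1.

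Of the adaptors and kinases that join integrins to actin and to signalling, 45 of 47 listed genes were measured. For the mean of both reagents 2 rose and 3 fell, 5 of 45 beside 4.13% of all genes. The rises were Tenc1, a tensin gene now named Tns2 (0.30, adjusted p = 0.0135), and Git2, which regulates Arf proteins at adhesions (0.20, adjusted p = 0.0445). The falls were Nedd9, a scaffold phosphorylated after adhesion (-0.50, adjusted p = 0.0408), the tensin gene Tns4 (-0.32, adjusted p = 0.00302) and Dock1, an activator of Rac (-0.28, adjusted p = 0.0085). With siAirn-001.1, 4 rose and 6 fell, 10 of 45 beside 5.96% of all genes. The 6 with the largest changes were Nedd9 (-0.84, adjusted p = 0.00501), Tenc1 (0.50, adjusted p = 0.00102), Tns4 (-0.42, adjusted p = 0.001), the actin regulator gene Zyx (0.42, adjusted p = 0.0191), Dock1 (-0.36, adjusted p = 0.004) and the alpha-actinin gene Actn1 (-0.34, adjusted p = 0.027). The remaining 4, named after their values were seen, were Parvb (-0.33), Vasp (0.30), Tns3 (-0.29) and Git2 (0.24). With siAirn-001.2 none of the 45 was called in limma. There 11 of the 45 had an unadjusted p under 0.05, a larger share than the 11.3% of all genes. For the mean it was 12 of 45 and with siAirn-001.1 14 of 45, beside 15.8% and 17.9% of all genes. The list was not chosen blind to these data.

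Nedd9 was at 8.60 to 8.98 with siScramble, with a median of 8.78, and at 7.84, 7.77, 8.04 and 8.14 with siAirn-001.1, all well below. With siAirn-001.2 it was 8.36, 8.09, 8.94 and 9.07, with arrays 3 and 4 inside or above the siScramble range. Tns4 was at 7.61 to 7.83 with siScramble, at 7.34, 7.20, 7.29 and 7.34 with siAirn-001.1, and the 4 siAirn-001.2 values were 7.49, 7.44, 7.62 and 7.48, where 3 of 4 arrays lay below the siScramble range. With siAirn-001.1, Nedd9, Tenc1, Tns4, Dock1 and Parvb passed in all 14 fits that left out 1 array, and Tns3, Actn1, Git2, Vasp and Zyx were lost in 9, 7, 7, 3 and 2 of them. For the mean, Nedd9 was lost in 9 and Git2 in 11. Between the reagents 3 of 45 were called, beside 1.01% of all genes. Zyx (-0.55, adjusted p = 0.0271) and Tenc1 (-0.40, adjusted p = 0.0311) were lower with siAirn-001.2. Parvg, a parvin gene named after its values were seen, was higher (0.59, adjusted p = 0.0315). Blocked by replicate number over the 8 siAirn arrays, these 3 did not pass (adjusted p = 0.113, 0.0882 and 0.0961). Parvg and Tns4 lay below the median of all genes (7.49) in all siAirn-001.1 arrays, where RMA damps differences. The kinase genes Ptk2 (-0.07) and Ilk (0.04) and the talin gene Tln1 (-0.05), picked as examples by no rule, had no called change for the mean. They act at the beta tail or close to it. Of the 45 genes measured, 34 had changes below 0 for the mean and 11 above, with a median of -0.07.

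The genes whose array values lay nearest to those of Itga8 were Matn3, Prelp, Adra2b, Fmod and Adamts9. Likeness was measured as the root mean square difference over the 14 arrays, each gene taken relative to its own siScramble mean, and it was 0.25 for Matn3, 0.30 for Prelp, 0.324 for Adra2b, 0.343 for Fmod and 0.378 for Adamts9, where the root mean square of Itga8 itself was 0.839. Matn3 encodes a cartilage matrix protein, Prelp and Fmod small leucine-rich proteoglycans, Adra2b an alpha-2 adrenergic receptor and Adamts9 a matrix protease. Relative to siScramble, Matn3 held 48.6%, 47.1%, 49.5% and 50.2% in siAirn-001.1 arrays 1 to 4 where Itga8 held 45.8%, 43.3%, 34.3% and 45.4%. In siAirn-001.2 arrays 1 to 4 Matn3 held 57.9%, 53.1%, 75.9% and 73.0% and Itga8 60.2%, 50.5%, 58.4% and 52.6%. Both were low in siScramble arrays 5 and 6, where Matn3 held 81.6% and 75.0% and Itga8 82.3% and 72.6%. Prelp did not share that feature and held 120% and 105% there. With the sign turned, the nearest were Atp6v0e2, a proton pump subunit gene (0.306), the stress-induced Nupr1 (0.32) and Kcnj3, an atrial potassium channel subunit gene (0.331). These values describe 14 arrays of 3 groups and carry no test.

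**Figure D5:**
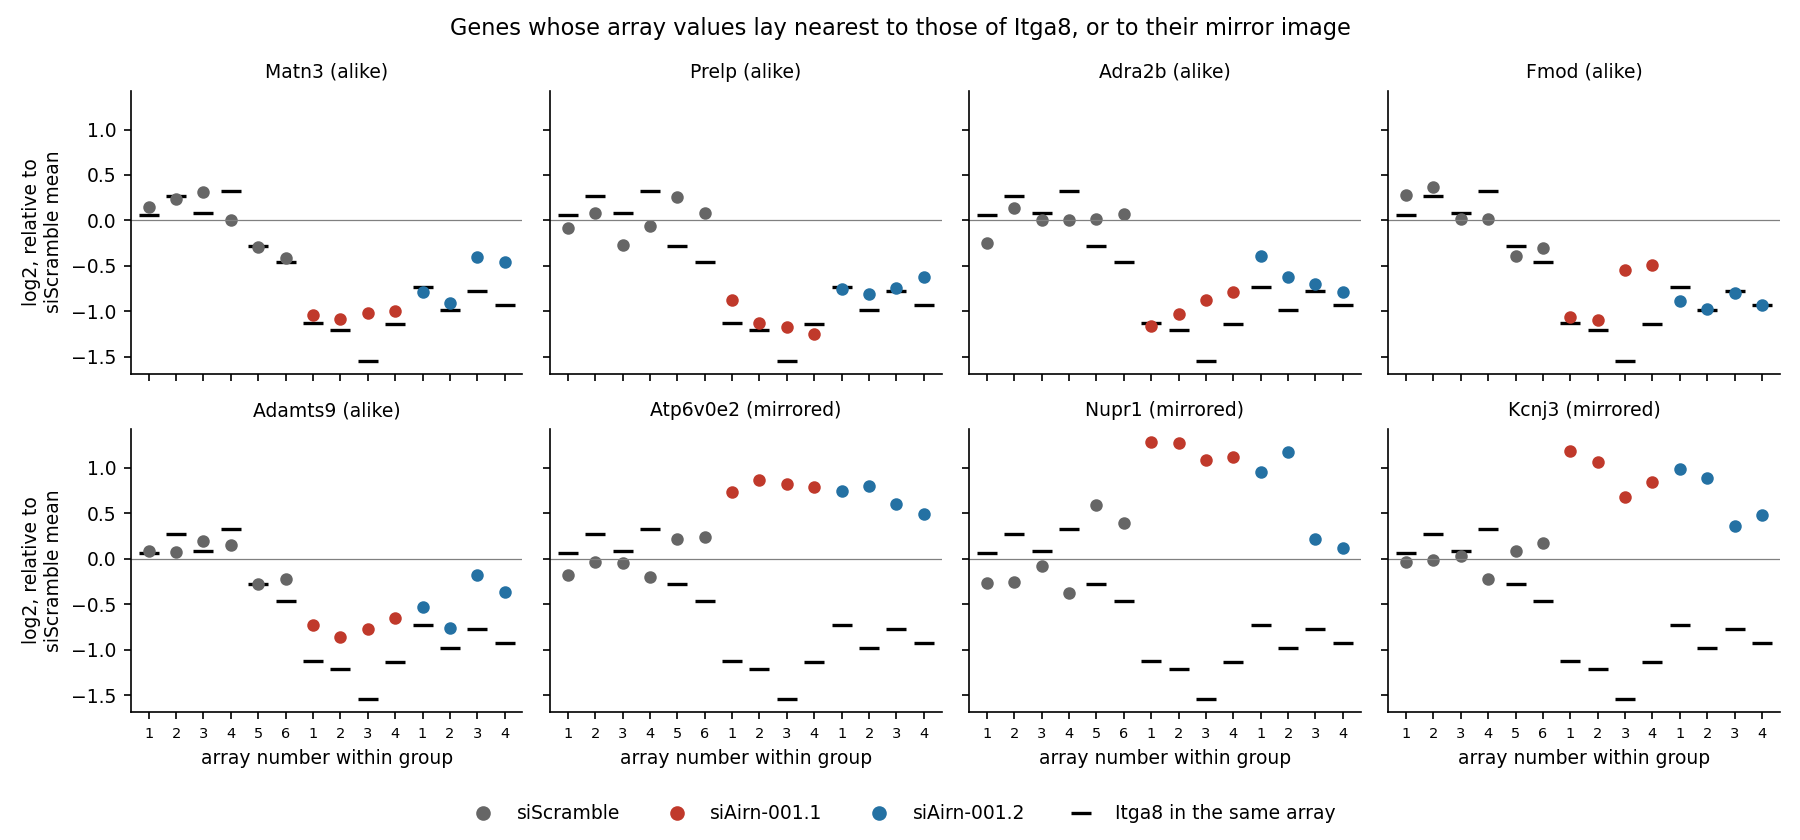
Log2 value relative to the siScramble mean (vertical axis) in each of the 14 arrays for the 5 genes nearest to Itga8 and the 3 nearest to its mirror image, as coloured points, with Itga8 in the same array as a black dash. Matn3 follows Itga8 into siScramble arrays 5 and 6, whereas Prelp does not.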

How the data were processed

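Total RNA of 14 arrays in 3 groups was labelled with biotin, per the labels' protocols. The authors deposited log2 expression values per array and transcript cluster; RMA, which equalises the arrays' distributions and damps differences between dim probes, and limma are tools listed, with no version, in the submitters' processing notes. Another table repeats the deposited log2 values at 2 decimals. For all siAirn against siScramble the authors also deposited a log2 difference with raw and adjusted p-values, per the file headers. The array model and build used by the authors are not stated there, and array data carry no read depth, so the number of arrays limits the precision.

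The values were used without further normalisation or filter. limma 3.58.1 (lmFit, eBayes; R 4.3.3) fitted 3 group means to 14 arrays and 20193 genes (11 residual and 5.31 prior degrees of freedom). Tests were two-sided, with Benjamini-Hochberg adjustment over all genes and a threshold of 0.05. An error after a change is its standard error. Exact permutation tests used the array values of 1 gene and are not adjusted. The fit was tested on simulated data. No column of values was left unmatched to a sample.

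The 10 members and the gene lists were chosen from textbook knowledge with earlier results of these data known. All members are named, and of each list up to 6 called genes with the largest change in a comparison; for Itga8, the 5 nearest genes and 3 nearest mirrored ones, passing over symbols of predicted genes, small RNAs, olfactory and vomeronasal receptors and symbols ending in Rik. Fbn1, Lims2, Actn4 and Myh6 are not analysed here. The alternatives were arrays centred on their median, the replicate number as a block, array weights, the lowest 25% of genes left out, a fit of the groups compared alone, and each array left out. Each siAirn-001.1 array correlated best, among the siAirn-001.2 arrays, with the same-numbered one in its deviations from the group means. These correlations were 0.32 to 0.53, against at most 0.25 with other numbers, the basis for pairing the 2 groups. Same-numbered siScramble arrays did not pair so (-0.43 to 0.23). Some siScramble arrays reached up to 0.46 with a siAirn array of another number.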

Additional observations from a re-analysis of the deposited data

Results flagged for a closer look

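Itgb1 in siAirn-001.1 array 2 (8.71) lay far above the other 3 arrays of its group, with a gap to the next of 0.859 of the group's whole range. Git2 in siScramble array 3 (9.63) lay far below the other 5, with a gap of 0.832 of the range. These were 2 of 93 groups checked over 31 genes, and chance gives about 1 in 20.

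The effect of the reagents differed by a test of the difference itself, in limma over all 14 arrays, for 1 member, 4 genes of the ligand and adaptor lists and 1 endothelial marker. In that comparison 1.01% of all genes were called. Itga4 was higher with siAirn-001.2 by 0.947 on the log2 scale, with every siAirn-001.2 array above every siAirn-001.1 array. Parvg was higher by 0.587. The endothelial marker Kdr differed by -0.639, Lama4 by -0.555, Zyx by -0.548 and Tenc1 by -0.398, all lower with siAirn-001.2. In limma over the 8 siAirn arrays alone, paired by number, Itga4 (adjusted p = 0.00744) and Lama4 (0.0398) passed. Kdr (0.051), Tenc1 (0.0882), Parvg (0.0961) and Zyx (0.113) did not. The pairing was taken from correlations of these same arrays, not from the labels. Unpaired, none of the 6 passed.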

How the results depend on the processing

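The fall of Itga8 passed for the mean and for both reagents, in the same direction, under every setting run. The counts of called members, other subunits, ligands and adaptors were, for the mean, 3, 0, 1 and 5, for siAirn-001.1, 2, 0, 5 and 10, for siAirn-001.2, 2, 0, 0 and 0, and between the reagents 1, 0, 1 and 3. In the same order of comparisons 4.13%, 5.96%, 0.951% and 1.01% of all genes were called, and these shares moved with the setting too. With arrays centred on their median there were 3 adaptors for the mean and 0 members between the reagents, and the Itga7 change with siAirn-001.1 was 0.0070. The replicate number as a block over all arrays gave 5, 9, 3 and 3 ligands for the mean, siAirn-001.1, siAirn-001.2 and between the reagents. Of all genes 7.68%, 9.14%, 2.79% and 1.45% were then called. There was 1 adaptor for siAirn-001.2, and the mean change of Itga5 was -0.065. No siAirn array has number 5 or 6, so siScramble arrays 5 and 6 carry no weight in this block, which in effect leaves them out. With the replicate block over the 8 siAirn arrays, a pairing taken from these same data, 0.891% of all genes were called between the reagents. Among them were 2 members, 2 ligands and 1 adaptor. With array weights there were 1 other subunit, 7 ligands and 9 adaptors for the mean, beside 9.54% of all genes. There were 8 ligands for siAirn-001.1, beside 9.44%. For siAirn-001.2 there were 4 members, 1 other subunit and 6 adaptors, beside 4.80%. Between the reagents there were 2 members, 3 ligands and 5 adaptors, beside 2.52%, and Itgb5 changed by -0.026. Without the lowest 25% of genes, 1 other subunit was called for the mean, beside 6.42% of the genes kept. With only the groups compared, 1 member, 0 ligands and 2 adaptors were called for the mean, beside 2.71% of all genes. Between the reagents 0 of each were called, beside 0.124%. The fit without siScramble arrays 5 and 6 was added after the data were seen, as were the next and the block over 8 arrays. Without these 2 arrays 1 other subunit and 4 ligands were called for the mean, beside 5.67% of all genes. For siAirn-001.2 there was 1 ligand, beside 2.05%, and between the reagents 0 members, beside 1.06%. Itga5 changed by -0.065 for the mean. Without the 3 siAirn arrays with Airn inside the siScramble range there were 0 ligands and 3 adaptors for the mean (4.04% of all genes). There were 2 ligands and 6 adaptors for siAirn-001.1 (6.27%) and 1 other subunit for siAirn-001.2 (1.25%). Between the reagents there were 1 other subunit and 8 adaptors, beside 4.95% of all genes. In that fit the siAirn-001.1 changes of Itga4, Itga6 and Itga7 were 0.010, -0.037 and 0.31, and Airn differed between the reagents by 0.14. The cause of these shifts was not tested.

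Over the 14 fits that left out 1 array, called members were 1 to 3 for the mean, 1 to 2 for siAirn-001.2 and 0 to 3 between the reagents. Other subunits were 0 to 1 for the mean and siAirn-001.2. Ligands were 0 to 2 for the mean, 2 to 6 for siAirn-001.1 and 0 to 3 between the reagents, and adaptors 3 to 6, 5 to 10 and 0 to 5. Of all genes, 1.87% to 4.86% were called for the mean and 3.81% to 6.23% for siAirn-001.1. It was 0.228% to 1.26% for siAirn-001.2 and 0.0990% to 2.83% between the reagents. Changes that turned direction in those fits, none of them called, ranged from -0.18 to 0.014 for Itga6 in the mean, -0.14 to 0.12 for Itga7 with siAirn-001.1, -0.19 to 0.063 for Itga5 with siAirn-001.2, and, between the reagents, -0.011 to 0.15 for Itgb5, -0.043 to 0.21 for Itgb6 and -0.32 to 0.088 for Airn. Over all genes, 833 were called for the mean, 435 higher and 398 lower, and 727 with arrays centred (460 and 267), 1550 with the block, 1927 with weights and 548 with the groups pooled. The siAirn-001.1 split of 693 higher and 510 lower became 794 and 358 with arrays centred. Itgb6 and Lama4 lay below the median of all genes, where the array resolves least. Itga8 lay below it in all siAirn-001.1 arrays and in siAirn-001.2 arrays 2 and 4, so the size of its fall has the same limit. Tns4 and Parvg also lay below that median in all siAirn-001.1 arrays, and the sizes of their changes are limited likewise.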
